A study of Mus musculus with 4 samples.

Results

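The 8 genes Defb50, 9530002B09Rik, 5330417C22Rik, Oit1, Spink5, Slc44a4, 1700003D09Rik and D030018L15Rik were examined in RNA-seq of epithelial cells sorted from growing prostate tips of young mice, where multipotent basal cells give rise to luminal cells. They are 8 of the 49671 genes in the table, and 8 of the 18737 that passed the filter on low values, under which every library of at least 1 cell type had to reach a normalized value of 10 and the average of that cell type had to reach 20. The genes were chosen by these measured values themselves, as genes far higher in the luminal than in the basal libraries, so their difference between the cell types is described and not tested. The study has 2 basal libraries (replicates 1 and 3) and 2 luminal libraries (replicates 3 and 2). All came from untreated CD-1 males, an outbred stock, aged 10 to 13 days after birth according to the labels. The methods describe the males as of mixed background and give an age range that ends earlier. Per the methods, cells of pooled ventral lobes were sorted after exclusion of CD45, CD31 and CD140a positive cells, basal cells as EpCAM high and CD49f high and luminal cells as EpCAM high and CD49f low. The sources do not say whether replicates came from separate pools of animals, so the p-values given for other genes measure only the spread between these libraries, which may be technical.

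The luminal layer of the prostate is a secretory epithelium. Its cells release protease inhibitors, antimicrobial peptides and lobe-specific secretory proteins into the lumen, and they carry transporters and mucosal surface proteins on their apical membrane. Basal cells line the outside of the duct, are anchored to the basement membrane by integrins and keratins, and in the growing tips divide to give rise to luminal cells. Of the 8 genes, 6 are annotated as protein-coding and 2 as non-coding. By known function or family they hold a beta-defensin, a FAM3 family factor, a Kazal-type protease inhibitor, a solute carrier and a single-pass endolysosomal membrane protein, and 9530002B09Rik, for which RefSeq lists the synonym Vpp1.

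Values are gene counts that the authors scaled to a common total per library, so 1 read is worth 6.26 and 6.49 units in the basal libraries and 19.4 and 31.2 units in the luminal ones. Wherever 4 values stand together they follow this order, basal 1, basal 3, luminal 3, luminal 2. Recovered reads per library ranged from 643268 to 3194264, and the basal libraries were the deeper ones. Intervals below are 95% exact Poisson intervals on the reads and cover counting error only. The cell type labels were checked against markers. Krt5, a basal keratin, had 18481, 15824, 77 and 93, and Krt19, a luminal keratin, had 601, 552, 8306 and 4332. All 10 basal markers that passed the filter were lower in luminal cells by the ratio of averages, and 9 of 12 luminal markers were past a fold of 2 in the luminal direction. Stromal transcripts were abundant in all 4 libraries although CD140a positive cells had been gated out, with 10 markers summing to 129600, 252593, 81333 and 250484 in the same order. The sum overlapped between the cell types, although 2 of the 10 did not. The matrix proteoglycan Dcn had 45830, 47724, 5770 and 20256 (log2 difference -2.11, limma adjusted p = 0.143, called higher in basal cells by edgeR and DESeq2). Desmin, encoded by Des, had 820, 1715, 3207 and 2834, in the direction of the 8 genes (1.35, limma adjusted p = 0.156). The part of these other cells in the values of the 8 genes was not tested.

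Reads of the 8 genes together made up 0.0072% of basal replicate 1 (95% Wilson interval 0.00633 to 0.00819) and 0.00708% of basal replicate 3 (0.0062 to 0.00808). They made up 0.196% of luminal replicate 3 (0.187 to 0.204) and 0.189% of luminal replicate 2 (0.179 to 0.2). In bulk libraries, fewer cells of a type and less RNA per cell cannot be told apart. All 8 genes had both luminal libraries above both basal ones, an order that 23.6% of all genes kept showed, and all 8 had a luminal to basal ratio of averages of 2 or more, as did 18.3% of all genes. Both counts follow from how the genes were picked. Only 4 of the 8 (Defb50, 9530002B09Rik, 5330417C22Rik and Oit1) also passed the filter in basal cells, so the other 4 entered through their luminal values alone.

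**Figure D1:**
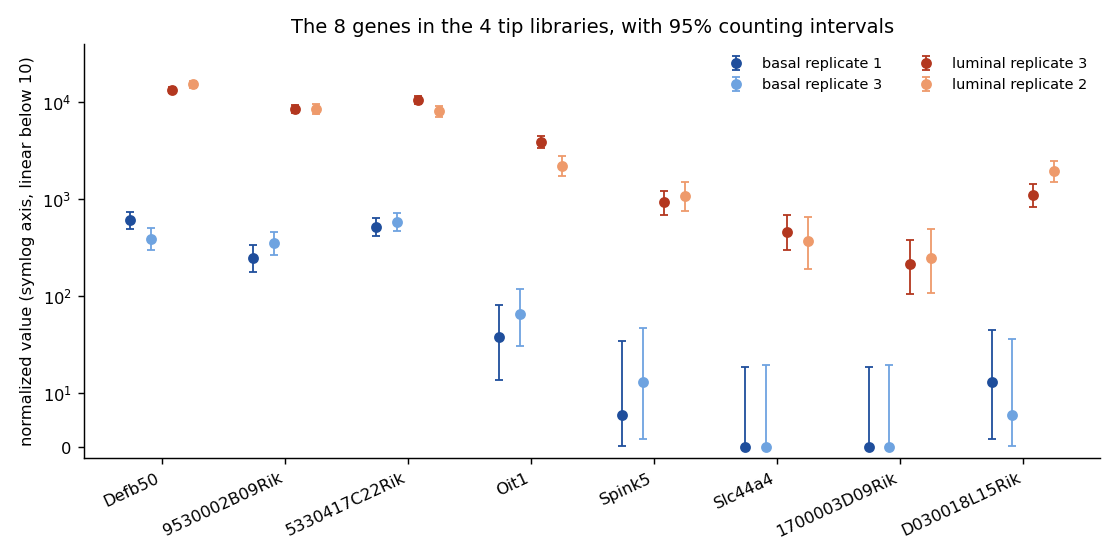
Normalized value (symlog axis, linear below 10) of each of the 8 genes in the 2 basal (blue) and 2 luminal (red and orange) libraries. Points are single libraries and bars are 95% exact Poisson intervals on the recovered reads, drawn up to 3 reads where there were 0. For every gene both luminal points lie above both basal points, and Slc44a4 and 1700003D09Rik are at 0 in both basal libraries.

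Among the secreted products, Defb50 had the highest luminal value of the 8. Beta-defensins are small cationic peptides held together by disulphide bridges between conserved cysteines, and they kill or attract microbes and immune cells at mucosal surfaces. Defb50 (ENSMUSG00000058568) lies at chr8:21823539-21831296 on the plus strand of GRCm38, with 2 exons and 373 exonic bases. Basal libraries showed 614 and 390 (98 and 60 reads) where luminal libraries showed 13437 and 15332 (694 and 492 reads). The luminal average of 14384.5 ± 1340 (SD, n = 2) was 28.7 times the basal average of 502 ± 158.4 (SD, n = 2). The lowest luminal value was still 21.9 times the highest basal value. Defb50 was detected well above 0 in basal libraries, with an interval of 498.3 to 748 for replicate 1 and of 297.2 to 501.3 for replicate 3, which overlap only at their edges.

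The protein translated from the annotated Defb50 transcript has 73 residues, of which 6 are cysteines, or 8.22% against a median of 2.13% over all proteins. It opens with a hydrophobic stretch, as signal peptides do. Among the other beta-defensins, 39 of 42 were at 0 in all 4 libraries and only Defb1 passed the filter. Defb1, the constitutive epithelial beta-defensin and the nearest protein-coding gene on the left of Defb50 at a distance of 28354 bases, had values of 463 and 201 in basal cells and 813 and 1652 in luminal cells. Its log2 difference was 1.92 (SE 0.56, limma adjusted p = 0.157). By edgeR and by DESeq2 on recovered reads it passed the threshold. Per kilobase of exons, the luminal level of Defb50 was 38564.3 and that of Defb1 was 1413.4. Defb2, the neighbour 8630 bases to the right, was listed at 0 in all 4 libraries. Of the beta-defensins measured, Defb50 had the highest level in the luminal libraries, and neither flanking gene came near it.

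Similar values were found for 9530002B09Rik (ENSMUSG00000023263), whose product is of unstated function in the sources used here. It lies at chr4:122689275-122705129 on the plus strand, with 5 exons. It had values of 251 and 357 in basal libraries and 8577 and 8601 in luminal libraries, from 40, 55, 443 and 276 reads. The luminal average was 8589 ± 17 (SD, n = 2), the closest agreement between luminal replicates among the 8 genes, and stood 28.3 times above the basal average of 304 ± 75 (SD, n = 2). With 276 reads in luminal replicate 2, the interval of that library alone ran from 7615.9 to 9677.7, so the small SD is narrower than counting error and is not a measure of precision. Its translated product has 135 residues and a most hydrophobic window of 1.59 on the Kyte-Doolittle scale, located at the amino terminus and just under the threshold of 1.6 used here. A nearby unprocessed pseudogene, Gm12876, matches it over 350 bases at 92.6% identity and had values of 0, 0, 194 and 62. How the counting treated reads that match both is not stated, and the pseudogene's values were small beside those of the gene. The nearest protein-coding gene on the right, the lysosomal thioesterase Ppt1, had 1315, 1488, 2091 and 1589 (log2 difference 0.38, SE 0.26, limma adjusted p = 0.48).

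Promoter windows of 300 bases, 250 before and 50 after the RefSeq start on GRCm38.p6, could be matched for 5 of the 8 genes. They are shown for 3 of these because the windows differ in composition and in the short motifs that they hold. Capitals mark exact matches, on either strand, to 6 motifs searched. These were the promoter element TATAAA, the forkhead motif TGTTTAC, the motif GGAAGT of ETS factors, the motif AGATAA of GATA factors, the motif AACCGG of Grainyhead-like factors and the motif TGANTCA of AP-1. The sequences run 5′ to 3′ on the gene's own strand, at chr4:122689009-122689308 (plus) for 9530002B09Rik, chr14:8378714-8379013 (minus) for Oit1 and chr17:34914216-34914515 (plus) for Slc44a4.
9530002B09Rik: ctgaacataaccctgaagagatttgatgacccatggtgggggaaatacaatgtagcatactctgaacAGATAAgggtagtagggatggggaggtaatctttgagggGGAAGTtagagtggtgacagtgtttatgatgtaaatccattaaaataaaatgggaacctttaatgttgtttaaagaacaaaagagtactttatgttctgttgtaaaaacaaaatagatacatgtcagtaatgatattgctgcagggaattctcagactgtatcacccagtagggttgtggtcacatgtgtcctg
Oit1: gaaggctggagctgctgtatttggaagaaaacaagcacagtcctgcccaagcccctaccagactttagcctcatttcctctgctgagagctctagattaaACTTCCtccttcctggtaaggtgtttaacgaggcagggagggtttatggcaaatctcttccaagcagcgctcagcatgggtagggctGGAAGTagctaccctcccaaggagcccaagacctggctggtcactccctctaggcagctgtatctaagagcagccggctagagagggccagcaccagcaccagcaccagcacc
Slc44a4: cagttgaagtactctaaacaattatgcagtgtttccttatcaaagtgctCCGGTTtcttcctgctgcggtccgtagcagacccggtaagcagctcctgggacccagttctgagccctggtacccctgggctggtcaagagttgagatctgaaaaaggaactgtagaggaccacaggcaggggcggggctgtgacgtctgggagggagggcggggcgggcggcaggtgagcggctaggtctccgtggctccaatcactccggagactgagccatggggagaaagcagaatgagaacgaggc
The window of 9530002B09Rik had 38.7% G and C and 0 CpG dinucleotides, against medians of 52.7% and 7 over 32817 promoters. It held 1 ETS match, 144 bases before the start, and 1 GATA match, 183 bases before it, a motif present in 11.2% of all promoters. In the Oit1 window, with 55.0% G and C and 3 CpG dinucleotides, the 2 ETS matches lay 150 and 63 bases before the start. At least 1 ETS match was present in 23.8% of all promoters and 2 or more in 4.18%. The Slc44a4 window was richer in CpG, with 13, and held the Grainyhead-like match 201 bases before its start, a motif present in 6.83% of promoters. The windows of 5330417C22Rik and 1700003D09Rik had 62.3% and 69.0% G and C with 21 and 29 CpG dinucleotides, and the latter held 1 ETS match, 123 bases before the start. No motif was found in all 5 windows. A match is a description of these letters and not a measured binding site.

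Oit1 (ENSMUSG00000021749), which RefSeq also lists as Fam3d, encodes a secreted cytokine-like factor of the FAM3 family, best known from the gut. The gene lies at chr14:8348937-8378754 on the minus strand. Basal libraries held 38 and 65 (6 and 10 reads) and luminal libraries 3931 and 2213 (203 and 71 reads). The luminal average of 3072 ± 1214.8 (SD, n = 2) was 59.7 times the basal average of 51.5 ± 19.1 (SD, n = 2), and the lowest luminal value was 34.0 times the highest basal value. The luminal replicates differed by a factor of 1.78, and their intervals, 3408.5 to 4510.1 and 1728 to 2790.8, did not overlap. The translated protein of 223 residues begins with the most hydrophobic amino terminus of the 6 proteins, with a window average of 2.38.

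The other FAM3 genes differed in direction. Fam3b, which encodes the islet factor PANDER, had 6 and 0 in basal and 542 and 125 in luminal libraries, the latter from 28 and 4 reads (limma adjusted p = 0.0748, but past the threshold by edgeR and DESeq2 on recovered reads). Fam3a had 294 and 370 against 523 and 436 (log2 difference 0.53, limma adjusted p = 0.491). Fam3c ran in the other direction, with 1196 and 624 in basal and 368 and 561 in luminal libraries (log2 difference -0.93, limma adjusted p = 0.346). Per kilobase of exons, the luminal level was 1957.9 for Oit1, 193.0 for Fam3a, 183.9 for Fam3b and 125.1 for Fam3c. In luminal libraries Oit1 was the most abundant of the 4 per length, while in basal libraries the highest level per kilobase was that of Fam3c, at 245.1. Both protein-coding neighbours of Oit1, Fam107a and 4930452B06Rik, failed the filter, with at most 77 in any library.

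Of the membrane proteins, 5330417C22Rik (ENSMUSG00000040412, now Elapor1 in RefSeq) had the highest values. It encodes a large endosomal and lysosomal membrane protein with a cysteine-rich luminal domain that has been linked to autophagy and to oestrogen response in the endometrium. The gene lies at chr3:108455694-108536536 on the minus strand, with 23 merged exons and 6304 exonic bases. Its values were 520 and 585 in basal libraries (83 and 90 reads) and 10591 and 8071 in luminal libraries (547 and 259 reads). The averages were 552.5 ± 46 and 9331 ± 1781.9 (SD, n = 2 each), a ratio of 16.9, the smallest of the 6 genes with basal reads, with the lowest luminal value 13.8 times the highest basal value. The translated protein has 1013 residues, 55 of them cysteines, and 1 hydrophobic segment, with a window average of 1.67. Its paralogue 9330182L06Rik was close to the detection limit, with 19, 45, 58 and 62 (log2 difference 1.01, SE 0.96, limma adjusted p = 0.596). The annotated spans of Gm23336, Gm37859 and 1700013F07Rik overlap its own without sharing an exonic base, and none of them exceeded 93 in any library. The flanking genes Sars, a seryl-tRNA synthetase, and Tmem167b had log2 differences of 0.07 and 0.10 (limma adjusted p = 0.903 and 0.893).

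Slc44a4 (ENSMUSG00000007034) encodes choline transporter-like protein 4, a multi-pass protein known as a thiamine pyrophosphate carrier of the colon epithelium. Its gene lies at chr17:34914466-34930436 on the plus strand. No read was recovered in either basal library, which at 3 reads allows values of up to 18.8 in replicate 1 and 19.5 in replicate 3. The luminal libraries had 465 and 374 (24 and 12 reads), an average of 419.5 ± 64.3 (SD, n = 2). The luminal average was 21.9 times this floor of 3 reads, averaged over the basal libraries, a ratio that leaves out the luminal counting error. The translated protein of 707 residues had 10 hydrophobic segments, a number reached by 1.06% of 21435 mouse proteins. At a stricter hydropathy threshold of 1.8 it had 9.

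The genes of the Slc44 family differed in direction. Slc44a1, the ubiquitous choline transporter, had 3031 and 2754 in basal and 1743 and 1620 in luminal libraries (log2 difference -0.78, SE 0.22, limma adjusted p = 0.143). Slc44a2 had 977 and 1026 against 1200 and 1060 (log2 difference 0.17, limma adjusted p = 0.734). Slc44a3 had 344 and 156 against 949 and 779 (log2 difference 1.89, SE 0.49, limma adjusted p = 0.114, past the threshold by edgeR and DESeq2 on recovered reads). Slc44a5 was at 19 in both basal libraries and at 0 in both luminal ones, at most 3 reads in a library. Per kilobase of exons the luminal levels were 242.1 for Slc44a1, 170.9 for Slc44a3, 134.8 for Slc44a4 and 130.2 for Slc44a2. The luminal levels of Slc44a4 and Slc44a2 differed by less than counting error, and in basal libraries Slc44a4 was the 1 gene of the 5 with no read.

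Genes of choline and thiamine use were examined beside Slc44a4. None of the 7 choline genes that passed the filter was past a fold of 2, and limma called 0 of them (2 had an unadjusted p under 0.05, and edgeR and DESeq2 called 0). Over all genes kept, 18.5% had an unadjusted limma p under 0.05 in either direction. edgeR called 2.49% of all genes it tested higher in luminal and 2.85% higher in basal cells, and DESeq2 called 2.18% and 2.25%. Choline kinase Chka, the most abundant, had 15256, 8328, 11888 and 13369. Choline dehydrogenase Chdh had 914 and 578 against 1355 and 1371 (log2 difference 0.91, SE 0.32, limma adjusted p = 0.228). Of 3 thiamine genes that passed the filter, limma, edgeR and DESeq2 called none (0 with an unadjusted p under 0.05). The thiamine transporter Slc19a2 had 332 and 513 against 407 and 249 (limma adjusted p = 0.686). The neighbours of Slc44a4 are close, Ehmt2 ending 414 bases before it and Neu1 starting 817 bases after it. The histone methyltransferase Ehmt2 had a log2 difference of -0.08 (limma adjusted p = 0.916) and the sialidase Neu1 one of 1.07 (SE 0.46, limma adjusted p = 0.298), with 163 and 175 against 407 and 312.

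Spink5 (ENSMUSG00000055561) encodes LEKTI, a chain of Kazal-type domains that inhibits kallikreins and related serine proteases, and whose loss in skin causes Netherton syndrome. The gene lies at chr18:43963235-44022501 on the plus strand, with 32 exons. It had 1 and 2 reads in the basal libraries (values of 6 and 13) and 48 and 35 in the luminal libraries (929 and 1091). The averages were 9.5 ± 4.95 and 1010 ± 114.6 (SD, n = 2 each). The ratio of pooled reads, scaled for depth, was 103.3, with a counting interval of 34.2 to 511.3, so the fold is known only within that range. The translated protein has 1017 residues, 61 of them cysteines (6.0%). Its annotated amino terminus had no hydrophobic stretch by the threshold used. Of 11 other Spink genes, 8 were at 0 in all libraries and only Spink8 passed the filter, with 0 and 6 against 77 and 31 (limma adjusted p = 0.189). Spink14, which starts 5368 bases after Spink5 on the same strand, was at 0 throughout.

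Serine proteases of epithelia, the class of enzyme that Kazal domains inhibit, were counted beside Spink5. Of 20 listed, 10 were at 0 in all libraries, all of them kallikreins, and 6 passed the filter. The other kallikreins listed, Klk8 and Klk9, had at most 1 read in a library. By ratio of averages 4 of these 6 passed a fold of 2 toward luminal and 1 toward basal cells, where the shares over all genes were 18.3% and 16.3%. The median log2 difference of the 6 was 1.99, against -0.10 over all genes. limma called 0 of 6 (5 had an unadjusted p under 0.05), whereas edgeR and DESeq2 on recovered reads each called 4, all higher in luminal cells. Matriptase, encoded by St14, had 977 and 1020 against 4008 and 2026 (log2 difference 1.51, limma adjusted p = 0.102). Prostasin, its partner encoded by Prss8, had 150 and 214 against 1433 and 686 (2.46, limma adjusted p = 0.0705). Tmprss2, a type II membrane protease, had 88 and 39 against 1065 and 686 (3.84, limma adjusted p = 0.0659). For each of the 3 genes both luminal libraries lay above both basal ones, as for 23.6% of all genes. Hpn, which encodes the membrane protease hepsin, ran the other way with no overlap, with 276 and 260 against 19 and 62 (-2.92, SE 0.86, limma adjusted p = 0.157). Of 9 other secreted or membrane protease inhibitors that passed the filter, 2 passed a fold of 2 toward luminal and 1 toward basal cells, with 0 called by limma (4 with an unadjusted p under 0.05) and 2 called higher in luminal cells by edgeR and by DESeq2, which also called 1 higher in basal cells (Serpinb5, an epithelial serpin, with 1791 and 2053 against 813 and 187) that edgeR did not. The 2 toward luminal cells were the matriptase inhibitor Spint1, with 338 and 396 against 1801 and 1091 (log2 difference 1.94, limma adjusted p = 0.0688), and Wfdc2, with 13 and 58 against 600 and 343 (3.98, limma adjusted p = 0.0898). Spint2, related to Spint1, had 2017 and 1754 against 4085 and 2711 (log2 difference 0.82, limma adjusted p = 0.217), while Serpine2 (1058, 2371, 871 and 2742) and Serping1 (1008, 4008, 1956 and 5578) overlapped between the cell types.

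The pair of non-coding genes had low basal values as well. D030018L15Rik (ENSMUSG00000078925), a lincRNA in GENCODE and a transcribed pseudogene in RefSeq, lies at chr15:96051603-96079553 on the minus strand between Ano6 and Arid2. It had 2 and 1 reads in the basal libraries (13 and 6) and 57 and 63 in the luminal libraries (1104 and 1963). The luminal replicates differed by a factor of 0.562 (replicate 3 over 2), the widest gap among the 8 genes in favour of replicate 2. The averages were 9.5 ± 4.95 and 1533.5 ± 607.4 (SD, n = 2 each), and the ratio of pooled reads was 149.4 with a counting interval of 49.9 to 734.7. Part of its transcript matches the nuclear receptor coactivator Ncoa2 over 910 bases at 83.5% identity. Ncoa2 itself had 4265, 3098, 2517 and 2960, both luminal values below both basal ones. Ano6 and Arid2 had log2 differences of -0.37 and -0.05 (limma adjusted p = 0.449 and 0.919).

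1700003D09Rik (ENSMUSG00000085944) had the lowest values of the 8. No read was recovered in basal libraries, again allowing up to 18.8 and 19.5, and luminal libraries had 213 and 249 (11 and 8 reads, intervals of 106.3 to 381.1 and 107.6 to 491.2). The luminal average was 12.1 times the same floor of 3 reads per library, again without the luminal counting error. The gene lies at chr11:98350718-98358283 on the minus strand, antisense to Ppp1r1b, and shares 460 bases, or 33.1% of its exons, with the exons of that gene. Ppp1r1b encodes the phosphatase inhibitor DARPP-32 and is also a marker of proximal luminal progenitor cells. It had 25 and 6 in basal and 1026 and 499 in luminal libraries (log2 difference 5.73, SE 0.95, limma adjusted p = 0.0665, past the threshold by edgeR and DESeq2). Whether the counting used strand is not stated, and without it reads of the shared exons cannot be assigned to either gene, so the value of 1700003D09Rik is uncertain.

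1700003D09Rik starts 85 bases from Stard3, a cholesterol-binding protein of late endosomes transcribed in the opposite direction. Stard3 had 150 and 58 against 581 and 218 (log2 difference 1.92, SE 0.79, limma adjusted p = 0.277). On the other side, the neuronal factor Neurod2 was at 0.

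**Figure D2:**
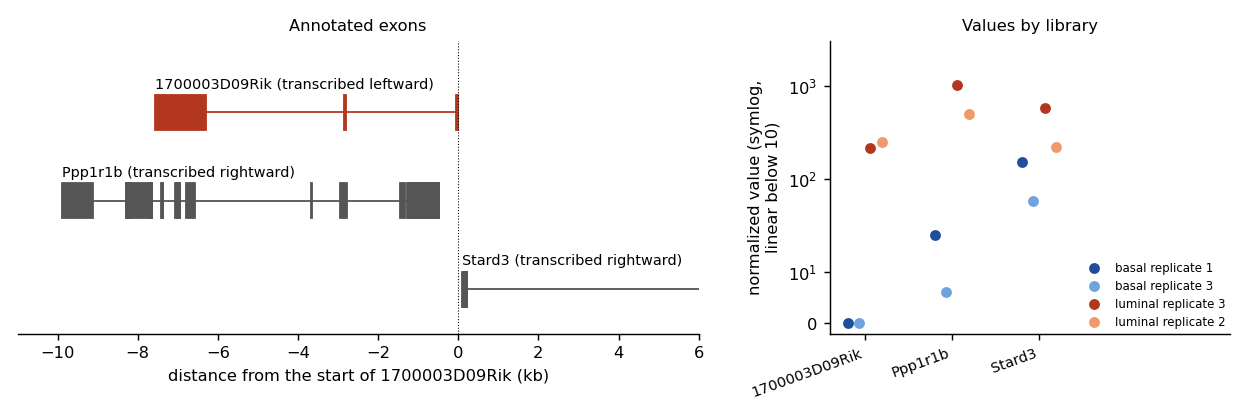
Left, annotated exons (boxes) of 1700003D09Rik, Ppp1r1b and the first part of Stard3, drawn to scale by distance in kb from the start of 1700003D09Rik, with Stard3 continuing past the right edge. Right, normalized values of the 3 genes in the 4 libraries (symlog axis, linear below 10), where all 3 have both luminal points above both basal points and 1700003D09Rik is at 0 in basal libraries.

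Levels of different genes were compared per kilobase of exons. In luminal libraries the order was Defb50 (38564.3), 9530002B09Rik (10696.1), Oit1 (1957.9), 5330417C22Rik (1480.2), D030018L15Rik (347.9), Spink5 (211.1), 1700003D09Rik (166.3) and Slc44a4 (134.8). Among all 18737 genes kept, these luminal levels ranked 28, 73, 381, 502, 2474, 4227, 5382 and 6440. All 8 genes thus lay in the upper part of the luminal range, Defb50 and 9530002B09Rik near its top. The genes were picked as far higher in luminal than in basal libraries, so a high luminal rank follows in part from that choice. Oit1 was above 5330417C22Rik in both luminal libraries, with 2505.4 against 1680.0 in replicate 3 and 1410.5 against 1280.3 in replicate 2, though in replicate 2 by no more than counting error. Spink5 and 1700003D09Rik, and 1700003D09Rik and Slc44a4, differed by no more than counting error in either luminal library. D030018L15Rik stayed above Spink5 in both luminal libraries, with 250.5 and 445.3 against 194.1 and 228.0, though in replicate 3 by no more than counting error. Without division by length 5 of the 8 changed rank (9530002B09Rik, 5330417C22Rik, Oit1, Slc44a4 and 1700003D09Rik), and Defb50 stayed first.

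**Figure D3:**
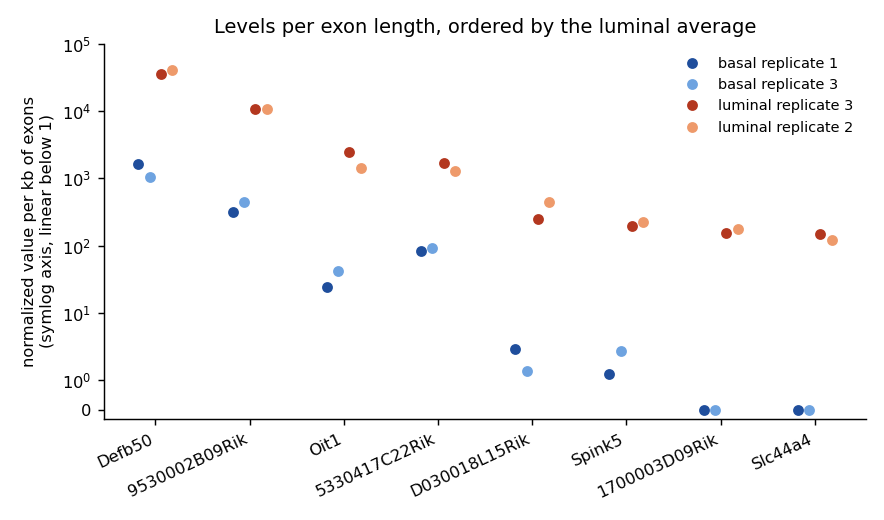
Normalized value per kilobase of merged exons (symlog axis, linear below 1) of the 8 genes, ordered from left to right by the luminal average. Points are single libraries, blue for basal and red or orange for luminal. Luminal levels fall from 38564.3 for Defb50 to 134.8 for Slc44a4, and the basal order is not the same as the luminal one.

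The order per kilobase was the same in both luminal libraries, but the replicates differed in either direction from gene to gene. Of the 8, 3 (5330417C22Rik, Oit1 and Slc44a4) were higher in luminal replicate 3 and 5 in replicate 2. The ratio of replicate 3 to replicate 2 ran from 0.562 for D030018L15Rik to 1.78 for Oit1. Over 9736 genes with a luminal average of 200 or more, the same ratio had a median of 0.962 and a range from the 5th to the 95th percentile of 0.31 to 2.31, so all 8 lay inside it. Luminal replicate 3 also carried neuroendocrine transcripts, among them chromogranin A (Chga) at 213 against 0 in replicate 2, and 7 neuroendocrine markers summed to 677 there and to 0 in replicate 2. Seminal vesicle markers summed to 464 and 62. The part of such cells in the values of the 8 genes was not tested.

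Over the 12544 genes that averaged at least 100, the fitted log2 differences of the 8 genes (log2 of value plus 1) ranked between 1 for Slc44a4 and 103 for 5330417C22Rik. They ranged from 4.06 to 8.71, and 95 other genes at that average were at or above the smallest of them. Just outside, among genes whose low values fit the spacing of their columns, were Mpped2, with 13 and 84 against 445 and 717, and Esrrg, with 38 and 214 against 1317 and 1683, at 4.04 and 4.02. No numerical threshold separates the 8 from these genes. The fitted differences of Slc44a4 and 1700003D09Rik depend on the added 1, since both are at 0 in basal libraries.

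**Figure D4:**
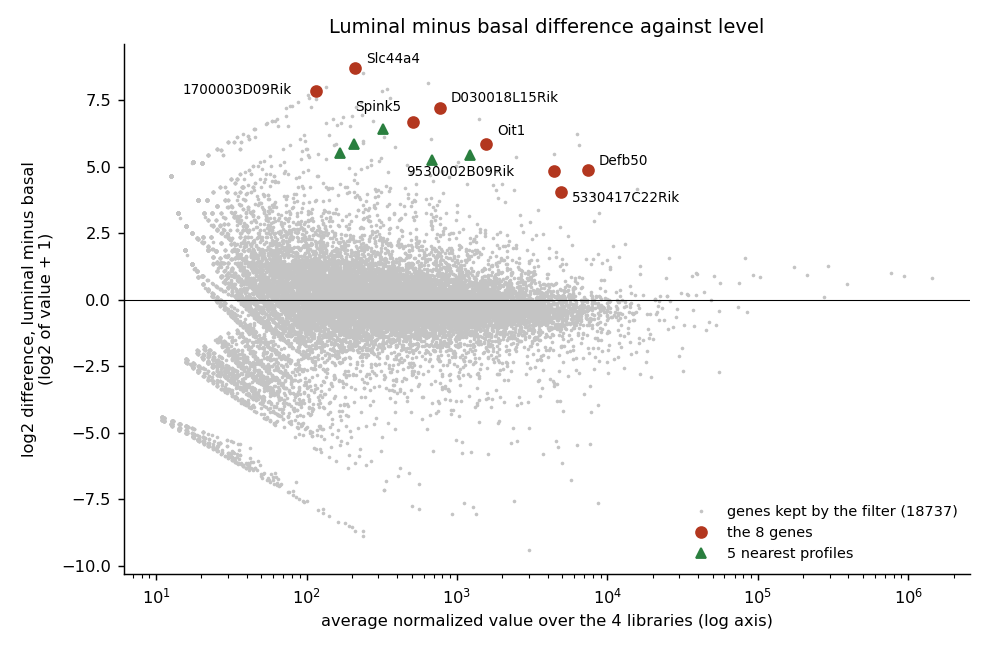
Log2 difference between luminal and basal libraries (log2 of value plus 1, vertical axis) against the average normalized value over the 4 libraries (log axis) for the 18737 genes kept (grey). The 8 genes (red, named) lie between 4.06 and 8.71 and the 5 genes with the nearest profiles (green triangles) between 5.25 and 6.43, all near the upper edge of the cloud at their level.

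The 5 genes whose values over the 4 libraries ran most like the median profile of the 8, of 12536 candidates, were Gjb2, Slc28a3, Wbscr25, Agr2 and Fut2. Likeness was the Euclidean distance between centred log2 values, and was 0.42 for Gjb2, 0.68 for Slc28a3, 0.92 for Wbscr25 and 1.18 for both Agr2 and Fut2. The gap junction protein Gjb2 had 6 in both basal libraries and 407 and 405 in luminal ones. Slc28a3, a concentrative nucleoside transporter, had 6 and 6 against 833 and 436. Agr2, a disulphide isomerase of the secretory pathway, had 69 and 39 against 3059 and 1714. Fut2, the fucosyltransferase of secretor status, had 44 and 26 against 1375 and 1278. Of the 8 genes themselves Oit1 lay nearest to the median profile, at 0.56, and Slc44a4 farthest, at 2.62.

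Known secretory products of the adult prostate gave the closest comparison by function. Of 16 listed, 8 passed the filter, and 7 of these 8 were past a fold of 2 in luminal cells and 0 in basal cells. Their median log2 difference was 3.75. By limma 1 of the 8 rose, against 0.256% of all genes in that direction. This was Pbsn, which encodes the secretory protein probasin, with 88 and 26 against 1878 and 2805 (log2 difference 5.55, SE 0.67, limma adjusted p = 0.0481). edgeR and DESeq2 on recovered reads each called 4. Sbp, the spermine-binding protein of the ventral lobe, had 463 and 2014 against 14115 and 15799 (3.95, limma adjusted p = 0.0688), and its relative Sbpl had 63 and 396 against 2517 and 3989 (4.31, limma adjusted p = 0.0705). Msmb, the secreted beta-microseminoprotein, had 6 and 45 against 871 and 4643 (6.81, limma adjusted p = 0.0688). Per kilobase, the luminal levels of 9530002B09Rik (10696.1) and Sbp (10167.9) were side by side, and that of Defb50 was higher than either. In basal libraries the spread of Sbp between replicates was wider than that of either gene, 463 and 2014 for Sbp against 614 and 390 for Defb50 and 251 and 357 for 9530002B09Rik.

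Other genes of mucosal defence went both ways. Of 19 listed beside the defensins, 6 passed the filter, 1 past a fold of 2 in luminal and 3 in basal cells, with a median log2 difference of -2.08. Pigr, the receptor that carries polymeric immunoglobulin into secretions, rose from 125 and 78 to 3040 and 3116 (log2 difference 4.95, SE 0.37, limma adjusted p = 0.0253). The siderophore-binding protein Lcn2 had 1015 and 968 in basal and 174 and 62 in luminal libraries (-3.24, limma adjusted p = 0.0688), and complement C3 had 2787 and 2189 against 0 and 125 (-7.78, SE 2.19, limma adjusted p = 0.142). Both were called higher in basal cells by edgeR and by DESeq2 on recovered reads. The value of C3 rests on the added 1, since 1 luminal library is at 0, and ran from -11.27 to -4.29 with 1 library left out (-11.27 without luminal replicate 2 and -4.29 without luminal replicate 3). Pigr stood on the luminal side and Lcn2 and C3 on the basal side of this group, with no overlap between the cell types for any of them. Over all genes kept, 23.6% had both luminal libraries above both basal ones. Defb50 is left out of this comparison because it was picked for its luminal values.

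Luminal markers and regulators also differed from each other. Of 12 luminal epithelial markers, 3 rose by limma: Krt19 (log2 difference 3.38, adjusted p = 0.041), the tight junction protein Cldn3 (5.18, adjusted p = 0.0481), and the peptidase Dpp4 (3.14, adjusted p = 0.041). The most abundant luminal keratins, Krt8 and Krt18, had smaller differences of 1.55 and 1.17 (limma adjusted p = 0.0705 and 0.0965). Both were called higher in luminal cells by edgeR and by DESeq2 on recovered reads, which each called 7 of the 12. Of 10 basal markers 6 fell by limma, against 0.438% of all genes in that direction, among them Krt5, Krt14 and Col17a1 (adjusted p = 0.00613 each). Itga6, among these 6, is CD49f, on which the cells were sorted. By edgeR and by DESeq2, 9 of the 10 basal markers were called higher in basal cells. Of 13 transcription factors of luminal cells, 6 were past a fold of 2 in luminal cells, with a median log2 difference of 0.34 and 0 called by limma (4 with an unadjusted p under 0.05, 2 called by edgeR and by DESeq2). Among the most abundant, Foxa1 and Ehf had log2 differences of -0.68 and 0.34 (limma adjusted p = 0.255 and 0.605). The calls of Pbsn, Krt19, Cldn3, Dpp4, Krt15, Trp63 and Itga6 were lost when any 1 of the 4 libraries was left out, and that of Pigr when either luminal library was. Each of these fits left 1 cell type with a single library, assumed to vary like the other cell type, so these losses say nothing about stability. Calls were also lost with all 4 libraries kept. At a pseudocount of 0.5 those of Pbsn, Krt19, Cldn3 and Dpp4 were lost. Without a trended prior those of Pbsn, Krt19 and Cldn3 were lost, and that of Cldn3 also after median-ratio rescaling. With each library left out in turn the log2 differences of these genes ran from 4.69 to 6.41 for Pbsn, 2.91 to 3.85 for Krt19, 4.48 to 5.89 for Cldn3, 3.07 to 3.22 for Dpp4 and 4.61 to 5.28 for Pigr. Those of the basal markers ran from -2.96 to -2.51 for Krt15, -6.91 to -5.37 for Trp63 and -2.36 to -2.05 for Itga6. Limma called 0 genes without the filter (4455 at an unadjusted p under 0.05).

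Markers of regions beside the tips were listed as well. The urothelial genes Upk1a and Upk1b had 75 and 58 against 581 and 499, and 19 and 91 against 581 and 436 (limma adjusted p = 0.0688 and 0.106). All 4 urothelial genes that passed the filter were past a fold of 2 in luminal cells (0 by limma, 3 with an unadjusted p under 0.05, 2 by edgeR and by DESeq2), while Upk2, a defining urothelial gene, was at 0 in 3 libraries and at 62 in luminal replicate 2. Among 4 proximal progenitor genes kept, 3 were past a fold of 2 and 0 were called by limma (2 with an unadjusted p under 0.05, 2 by edgeR and by DESeq2). Of these, Ly6a had 132 and 136 against 174 and 343. The summed urothelial values were 175 and 577 in basal and 1259 and 1339 in luminal libraries, moving in the same direction as the 8 genes. Their part in the values of the 8 genes was not tested. Endothelial markers summed to 1472, 1234, 561 and 1153 and immune markers to 2974, 1669, 833 and 2056, lowest in luminal replicate 3. Most of the immune sum was Cd3e (2173, 1462, 639 and 1807), while the pan-leukocyte gene Ptprc had 150, 6, 0 and 0.

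**Figure D5:**
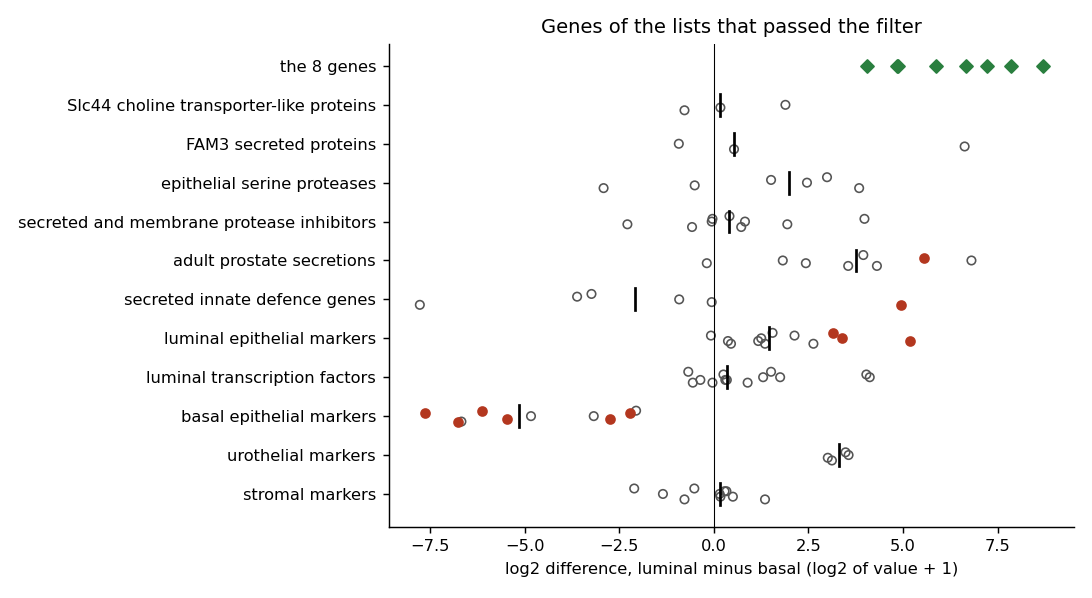
Log2 difference between luminal and basal libraries (log2 of value plus 1) of the 8 genes (green diamonds) and of the genes of 11 lists that passed the filter. Circles are genes, filled red where the limma adjusted p was under 0.05, and black ticks are list medians, which run from -5.16 for basal markers to 3.75 for adult prostate secretions. Slc44 and FAM3 genes other than Slc44a4 and Oit1 lie on both sides of 0.

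The stated rule for picking the genes used expression values and not sequence features of the 6 protein-coding ones. Since no numerical threshold separates the 8 genes from others, knowledge of their products may have entered the choice. The shares below are therefore only a description. A hydrophobic amino terminus or a hydrophobic segment elsewhere, at a Kyte-Doolittle average of at least 1.6 over 19 residues, was found in 4 of 6 (Defb50, Oit1, 5330417C22Rik and Slc44a4), and in 43.1% of 21435 mouse proteins. At a threshold of 1.8 it was 3 of 6, against 35.4% of all. Defb50 and Oit1 had it at the amino terminus, as did 14.7% of all proteins. The 2 proteins without it were Spink5 and 9530002B09Rik. The 6 proteins span 73 to 1017 residues and fall into separate families, and the 8 genes lie on 8 different chromosomes, so no pair shares a locus.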

How the data were processed

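RNA-seq libraries of basal and luminal cells sorted from prostate tips, 2 per cell type, were analysed. The authors amplified RNA with the Ovation Solo kit, mapped reads with STAR, counted genes with HTSeq against the Ensembl annotation of GRCm38, scaled counts to a common number of aligned reads and deposited the rounded values, a signal per gene and library. Picard is named in the submitters' processing notes without a role. Counting mode, use of strand and removal of duplicates are not given in the sources used here. The deposited values of low genes step in units of 1 read, so whole reads were recovered by fitting that step over values of at most 60 reads (tolerance 0.7 normalized units). The low values that came out whole were 99.1%, 97.9%, 98.6% and 98.3%, in the order basal 1, basal 3, luminal 3, luminal 2. In no library were all low values whole. Low values off the spacing occurred in 482 genes. In these genes the off values (8 reads or fewer) of the luminal 3 column lay on the spacing of luminal 2 in 100% of cases, those of the luminal 2 column on that of basal 1 in 95.9%, those of the basal 1 column on that of basal 3 in 100%, and those of the basal 3 column on none of the 4, so their columns may not belong to the libraries named. None of the 8 genes or of the list genes kept is among them. Only values of few reads could be checked in this way. The check could therefore not flag Defb50, 9530002B09Rik or 5330417C22Rik, with 40 reads or more in every library, nor list genes with high values throughout. Of the 482, 197 were kept and enter the limma and fold counts over all genes, with 0 limma calls, 76 genes past a fold of 2 in luminal and 36 in basal cells. They were left out of edgeR and DESeq2.

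The members and all gene lists were chosen with earlier results of these data known. A gene was kept when every library of at least 1 cell type was at 10 or more with a group average of 20 or more, and 18737 genes were kept. Folds are ratios of group averages, with 2 as the threshold. limma 3.58.1 (R 4.3.3) was fitted to log2 of value plus 1 with a trended prior over all genes kept, with Benjamini-Hochberg adjustment and a threshold of 0.05. edgeR 4.0.16 and DESeq2 1.42.0 on recovered reads were alternatives, beside other filters, pseudocounts, scalings and leaving out each library. An exact permutation test of 2 against 2 cannot give a p below 0.333 (two-sided), so none was run. Genes named beside the 8 were, in each list, those with an adjusted p under 0.05 and up to 3 with the highest average, plus fixed cell type markers, 5 nearest profiles, overlapping genes and nearest protein-coding genes. Genes next in order of difference, sequence-matched genes, Slc44a5, Hpn, Serpinb5, Spint1, Wfdc2, Des, Klk8, Klk9 and Ptprc were named after their values were seen. Symbols and coordinates came from GENCODE vM21 (GRCm38), which held 49326 of the 49671 identifiers, promoters and synonyms from RefSeq, and matches between transcripts from blastn 2.17.0+. Proteins were translated from GENCODE transcripts. Some genes and motifs that these rules named are not reported here.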

Additional observations from a re-analysis of the deposited data

How the results depend on the processing

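No paired analysis was possible because the basal and luminal libraries share only 1 replicate number. Over the alternatives run, 68 values of the 8 genes moved by less than the spread between replicates, 12 moved by more and 0 changed sign. Their median log2 ratio of 4.83 was 6.27 with a pseudocount of 0.5, where genes at 0 in basal libraries are set against the pseudocount in place of the floor, and between 4.67 and 5.14 otherwise. The order of levels changed for 5 of the 8 genes without division by exon length. The number of genes that limma called higher in luminal cells was 48, and 0 without a filter (4455 at an unadjusted p under 0.05 in either direction), 20 and 212 and 274 with pseudocounts of 0.5, 10 and 32, 269 with the filter applied to every library, 369 after quantile normalization, 223 without a trended prior, 462 by edgeR, 404 by DESeq2, and 6 to 830 with 1 library left out (6 without basal replicate 1, 830 without luminal replicate 3). The number called higher in basal cells was 82, and under the same settings 0, then 34, 319 and 394, then 409, 499, 321, 528 and 417, and 14 to 751 with 1 library left out (14 without luminal replicate 2, 751 without basal replicate 3). Past a fold of 2, 3431 genes were higher in luminal and 3051 in basal cells. These became 6535 and 7806 without a filter, 1852 and 1792 with the filter applied to every library, 1456 and 1133 at a fold of 4, and 3760 to 5554 and 3213 to 4406 with 1 library left out. Rescaling to nuclear protein-coding genes gave 4551 and 2147 past the fold, and 63 and 62 by limma, and shifted the median log2 difference over all genes, -0.10 as deposited, to 0.21, while quantile normalization gave -0.05. Of the values of list genes under the alternatives, 752 kept their side of the threshold, 71 passed it newly, 53 lost it and 0 turned direction with a call, while 19 values of 8 genes without a call had the other sign, Serpine2 among them under quantile normalization (0.23). The cause of these changes was not tested. With 12 reads of Slc44a4 and 8 of 1700003D09Rik in luminal replicate 2 and none in basal libraries, depth limits their folds to lower bounds.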
